A study of Mus musculus with 3 samples.

Results

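The transcripts described here are those of the mouse mitochondrial genome, chosen as every annotated gene whose symbol begins with mt-. There were 37 such genes among 55536 annotated genes: 13 mRNAs, 2 rRNAs and 22 tRNAs. They lie between positions 1 and 15422 of chromosome M (mm10, GENCODE M21), 28 on the plus strand and 9 on the minus strand. All 3 libraries came from chromatin-fraction RNA of C57BL/6J bone-marrow-derived macrophages, primary cells treated for 10 min with Lipid A at 100 ng/ml, and were made as ribosomal RNA depleted total RNA. They form 1 group, labelled biological replicates 1, 2 and 3, with starting amounts of 1 µg, 250 ng and 500 ng. Each amount occurred in 1 replicate, so amount and replicate cannot be told apart, and the labels give all 3 libraries the same donor entry, so their spread may be partly technical. No unstimulated library and no other cell fraction is used here.

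The mitochondrial genome is transcribed as long precursors from each strand. Its heavy-strand transcript carries the rRNAs, most tRNAs and all mRNAs but that of mt-Nd6, and tRNAs punctuate the precursor, where their excision frees the mRNAs and rRNAs. The mRNAs code for core subunits of respiratory complexes I, III, IV and V, whose other subunits are made from nuclear genes. The precursors are made inside mitochondria, away from the chromatin of the nucleus, and the nuclear genome holds pseudogene copies of parts of the mitochondrial genome. In the text, heavy-strand genes are those annotated on the plus strand and light-strand genes those on the minus strand.

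The gene tables held 15698066, 16005795 and 14386725 estimated counts on annotated genes in replicates 1, 2 and 3, and the second transcript tables held between 23952474 and 28155711. The macrophage identity given by the labels was checked with 10 markers, of which 10 had a TPM (the length-normalized abundance deposited by the authors) of 1 or more in every library, with a summed TPM of 617 to 1264. Of 25 markers of neutrophils, T cells, B cells, erythroid cells and fibroblasts, 1 passed, the erythroid heme enzyme gene Alas2, and 10 were at 0 in all libraries, among them Ly6g, Cd3e, Pax5 and Hbb-bt. Summed TPM reached at most 1.17 for the neutrophil, 0.29 for the T cell, 0.4 for the B cell and 0.8 for the fibroblast list, and lay between 3.26 and 10.8 for the erythroid list.

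Some sequences decide what can be counted. On chromosome 1, between positions 24611535 and 24616197 on the minus strand, 7 annotated unprocessed pseudogenes follow each other in the order of mt-Co1, mt-Co2, mt-Atp6, mt-Co3, mt-Nd3, mt-Nd4l and mt-Nd4. They are named Gm29216, Gm28661, Gm10925, Gm28437, Gm28438, Gm10222 and Gm28439. The copies of mt-Co2, mt-Atp6, mt-Co3 and mt-Nd4l matched their member without a mismatch over 681, 678, 783 and 294 bases, which is all but 1 to 3 bases of the member. The copies of mt-Nd4 and mt-Co1 matched only part of the member, 876 of 1378 bases with no mismatch and 483 of 1545 bases with 1 mismatch. The copy of mt-Nd3 matched over 345 of 348 bases with 1 mismatch. The first 60 bases of mt-Co3, chrM:8607-8666, plus strand, and of its copy Gm28437, chr1:24613912-24613971, minus strand, are shown because a read from here cannot be placed by its sequence.
mt-Co3: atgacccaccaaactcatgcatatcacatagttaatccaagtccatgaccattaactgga
Gm28437: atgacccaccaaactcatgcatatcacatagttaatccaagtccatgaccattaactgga

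For mt-Nd3, chrM:9459-9485, plus strand, and Gm28438, chr1:24613093-24613119, minus strand, the capital marks the base in which they differ, T3C, with positions counted from the first base of the member's transcript.
mt-Nd3: atTaacctgtacactgttatcttcatt
Gm28438: atCaacctgtacactgttatcttcatt

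For mt-Co1, chrM:6390-6417, plus strand, and Gm29216, chr1:24616161-24616188, minus strand, the capital marks A1066T, counted in the same way. The remaining aligned bases of both pairs were identical.
mt-Co1: ggaAttgttttatccaactcatcccttg
Gm29216: ggaTttgttttatccaactcatcccttg

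The mRNA of mt-Atp8 is shown whole, chrM:7766-7969, plus strand, because it is the shortest mRNA of the set with 204 bases, and the 43 bases in capitals belong to mt-Atp6 as well.
mt-Atp8: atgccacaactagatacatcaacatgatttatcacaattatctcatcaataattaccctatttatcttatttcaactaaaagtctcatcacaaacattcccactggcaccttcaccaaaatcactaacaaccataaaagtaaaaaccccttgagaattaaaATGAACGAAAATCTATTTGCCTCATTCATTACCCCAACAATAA

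Mitochondrial transcripts were a small part of these chromatin libraries. The members held 0.0926% (95% Wilson interval 0.0911 to 0.0941), 0.0407% (0.0398 to 0.0417) and 0.0343% (0.0334 to 0.0353) of the estimated counts in replicates 1, 2 and 3, a mean of 0.0559% ± 0.0320 (SD, n = 3). Replicate 1 stood above the other two, and the intervals, which cover counting error only, did not overlap. In bulk libraries like these, fewer cells of a type and less RNA per cell cannot be told apart. With the chromosome 1 copies added the share was 0.113%, 0.0510% and 0.0398%, and in the second transcript table the members held 0.0798%, 0.0339% and 0.0312%. Among the members' counts, mRNAs took 97.0% ± 1.72 and rRNAs 3.05% ± 1.72 (SD, n = 3 each), and mt-Co1 alone took 55.8% ± 4.48 (SD, n = 3). These shares leave out the counts placed on the chromosome 1 copies. With the copies added, mt-Co1 held 50.6%, 44.4% and 48.3% of the mRNA counts in replicates 1, 2 and 3, a mean of 47.8% ± 3.15 (SD, n = 3).

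Detection, set at a TPM of 1 in every library, held for 11 of the 37 members, against 24.4% of all annotated genes. The 11 were 9 mRNAs and 2 rRNAs. All 22 tRNAs had an effective length of 0 (no positions left for a fragment), so they could not pass. This was so for 4326 of the 55536 annotated genes, so the 2 shares are not alike in what could be detected. With the counts of the chromosome 1 copies added to their members, all 13 mRNAs and both rRNAs passed. In the second transcript table, 17 members passed, among them all mRNAs but mt-Nd3, both rRNAs and 3 tRNAs. These tRNAs passed on 2 to 7 counts in each library. The share of all genes that passes in the second transcript table is not given here, so the 17 cannot be read against it. The 4 mRNAs that did not pass in the gene table on their own counts were mt-Co2, mt-Atp6, mt-Co3 and mt-Nd3, all with a full-length chromosome 1 copy, and mt-Co2, mt-Atp6 and mt-Nd3 were listed at 0 in some library.

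The counts of these 4 mRNAs were divided between member and copy in ways that differed by library. mt-Co2, a core subunit of cytochrome c oxidase, had 0, 405 and 177 counts in replicates 1, 2 and 3, while Gm28661 had 1647, 223 and 163. The gene table also holds a posterior mean count, a second estimate, with a deposited standard deviation that comes from dividing shared reads. That standard deviation, called assignment SD from here on, belongs to the posterior mean rather than to the estimated count. For mt-Co2 it was 204, 159.6 and 86.2 counts, around posterior means of 327, 339 and 195. Replicate 1, with the highest sum, was thus the library in which the member's estimated count was 0, though its posterior mean was not. mt-Co3, another core subunit of that enzyme, had 678, 1.86 and 1.53 counts against 1203, 867 and 513 on Gm28437, with an assignment SD of 432, 218 and 147. Its estimated counts thus lay mainly in replicate 1, while its posterior means were 895, 266 and 245. mt-Atp6, a subunit of the proton channel of ATP synthase, had 226, 0 and 146 counts against 297, 422 and 47.5 on Gm10925, with an assignment SD of 159, 98.6 and 47.4. mt-Nd3, a subunit of complex I, had 115, 0 and 0 counts against 0.13, 69 and 43 on Gm28438, with an assignment SD of 25.1, 15.4 and 11.3. The posterior means were 303, 99.6 and 113 for mt-Atp6 and 76.5, 21.3 and 17.1 for mt-Nd3. The 4 members together held 24.5%, 20.4% and 29.7% of the estimated counts of these pairs in replicates 1, 2 and 3.

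For the other 3 pairs the gene table placed nearly all estimated counts on the member. mt-Co1 held 100%, 98.4% and 98.95% of its pair, mt-Nd4l 100%, 99.7% and 100%, and mt-Nd4 100% in each library. The assignment SD was still 18.6, 11.4 and 6.90 counts for mt-Nd4l, beside counts of 112, 50.8 and 27, whereas it was at most 23.8 counts for mt-Co1 and 7.07 for mt-Nd4. Gm29216, the copy of mt-Co1, held 0, 55.9 and 28.1 counts. The posterior means of mt-Nd4l were below its estimated counts, at 90.7, 31.95 and 17.5. So the full-length copy of mt-Nd4l went with an assignment error that was large for its counts, although few estimated counts were placed on the copy.

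The second transcript table, which the authors made from the reads and a transcript index, divided the same pairs differently. Members held 97.4%, 96.2% and 98.8% of the counts of the 7 pairs in the second transcript table, against 77.4%, 72.7% and 80.5% in the gene table. mt-Co2 had 1478, 689 and 477 counts there, against 314, 51.3 and 9.55 on its copy. mt-Nd3 had 119, 0 and 49 counts, against 0, 80 and 0 on its copy. The estimated count of mt-Nd3 in replicate 2 was thus 0 in both tables. Since a member's own value in these pairs depends on the table and the library, levels of single genes are given below as the sum of member and copy. For every pair and library that sum was a whole number of counts in the gene table to 2 decimals, such as 1647, 628 and 340 for mt-Co2. The part that transcription of the copies has in these sums was not tested. The tests below used the members' own values, and values with the copies added are given beside them.

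**Figure D1:**
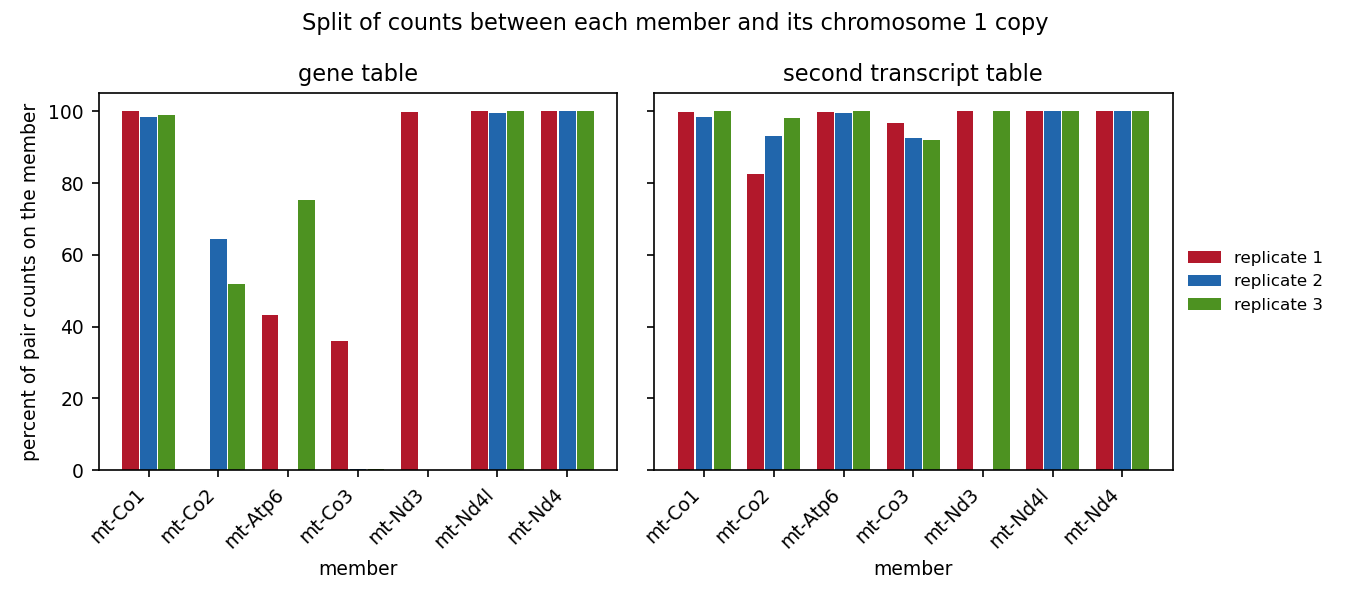
Percent of the estimated counts of each pair placed on the mitochondrial member rather than on its chromosome 1 copy (y axis), for 7 pairs in genome order (x axis), in the gene table (left) and the second transcript table (right), with a bar for each of the 3 libraries. In the gene table mt-Co2, mt-Atp6, mt-Co3 and mt-Nd3 vary between 0% and 99.9%, and in the second transcript table mt-Nd3 in replicate 2, at 0%, is the lowest, with mt-Co2 in replicate 1 next at 82.5%.

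A further 10 nuclear copies met the limits used, 90% identity over 100 bases, among them copies of mt-Nd2, mt-Nd5, mt-Nd6 and mt-Cytb, which brought the total to 17 copies of 11 members. In the gene table each of these had at most 1 count in any library. Gm43743, a transcribed pseudogene of chromosome 3 of which 116 bases match mt-Atp6, had a mean of 49.6 counts in the second transcript table and 0.33 in the gene table.

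The mRNAs of complex IV were the most abundant of the mitochondrial set by mean TPM, although mt-Atp8 ranked above mt-Co2 and mt-Co3 in replicates 2 and 3. In TPM of member plus copy, mt-Co1, the catalytic subunit of cytochrome c oxidase (ENSMUSG00000064351.1, chromosome M, 5328 to 6872), had 467, 151 and 118 in replicates 1, 2 and 3, a mean of 245 ± 193 (SD, n = 3). mt-Co3 (ENSMUSG00000064358.1, 8607 to 9390) had 229, 89.1 and 53.7, a mean of 124 ± 92.8. mt-Co2 (ENSMUSG00000064354.1, 7013 to 7696), which carries the site that takes electrons from cytochrome c, had 243, 78.8 and 43.2, a mean of 122 ± 106. All 3 were highest in replicate 1, and the SD was nearly as large as the mean. As a share of the summed TPM of the 13 mRNAs, which takes out the total, complex IV mRNAs held 62.0%, 45.5% and 45.8%. That sum includes mt-Atp8, whose share was 3.63%, 16.0% and 16.1% in replicates 1, 2 and 3, from 24, 47 and 36 counts.

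Complex I mRNAs lay lower by mean TPM. mt-Nd4l (ENSMUSG00000065947.3, 9877 to 10173) had a TPM of 78.0, 35.5 and 17.6 in replicates 1, 2 and 3, mt-Nd1 (ENSMUSG00000064341.1, 2751 to 3707) 67.2, 29.1 and 20.6, and mt-Nd5 (ENSMUSG00000064367.1, 11742 to 13565) 62.0, 24.02 and 20.9. These are membrane subunits of the enzyme that oxidizes NADH, and each was highest in replicate 1. mt-Nd3 (ENSMUSG00000064360.1, 9459 to 9806) had 55.1, 31.8 and 19.0 with its copy, mt-Nd4 (ENSMUSG00000064363.1, 10167 to 11544) 48.6, 22.2 and 14.7, and mt-Nd2 (ENSMUSG00000064345.1, 3914 to 4951) 22.4, 14.6 and 9.40. mt-Nd2 was the lowest mRNA in all 3 libraries, and the TPM of mt-Co1 was 20.8, 10.3 and 12.5 times that of mt-Nd2, its neighbour upstream on the same strand with no mRNA between them. mt-Nd4 held a nearly constant share of the summed mRNA TPM, 3.21%, 3.18% and 3.14%, and mt-Nd1 4.44%, 4.16% and 4.39%.

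mt-Cytb, the cytochrome b subunit of complex III (ENSMUSG00000064370.1, 14145 to 15288), had a TPM of 73.3, 27.9 and 16.9 in replicates 1, 2 and 3, a mean of 39.4 ± 29.9 (SD, n = 3). mt-Atp6 (ENSMUSG00000064357.1, 7927 to 8607) had 77.5, 53.3 and 24.7 with its copy. mt-Atp8, the small membrane subunit of ATP synthase (ENSMUSG00000064356.3, 7766 to 7969), had 54.9, 112 and 75.3, so it was lowest in replicate 1, unlike the other heavy-strand mRNAs. Its values rest on 24, 47 and 36 counts, with exact Poisson 95% intervals of 15.4 to 35.7, 34.5 to 62.5 and 25.2 to 49.8. They are divided by an effective length (the positions left for a fragment) of 30.8, 23.4 and 27.9 bases. Its mean TPM was 32.3 ± 11.0 in the second transcript table, against 80.8 ± 29.1 in the gene table (SD, n = 3 each). The mean of the second table put mt-Atp8 below that of mt-Atp6 with its copy, 36.2 ± 14.4, where the gene table put it above, 51.8 ± 26.5 for mt-Atp6 (SD, n = 3 each).

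mt-Nd6, a complex I subunit and the only mRNA of the light strand (ENSMUSG00000064368.1, 13552 to 14070, minus strand), had the smallest SD relative to its mean in TPM, while in scaled CPM that of mt-Rnr2 was smaller. It had a TPM of 36.2, 30.4 and 35.0 in replicates 1, 2 and 3, a mean of 33.9 ± 3.08 (SD, n = 3), from 161, 153 and 177 counts. The exact Poisson 95% intervals of these counts, 137 to 188, 130 to 179 and 152 to 205, overlapped. Among the 15 rRNAs and mRNAs it ranked 12 in replicate 1, 8 in replicate 2 and 5 in replicate 3. The use of strand in counting is not known here, and mt-Nd6 shares 14 positions with the end of mt-Nd5 on the opposite strand.

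**Figure D2:**
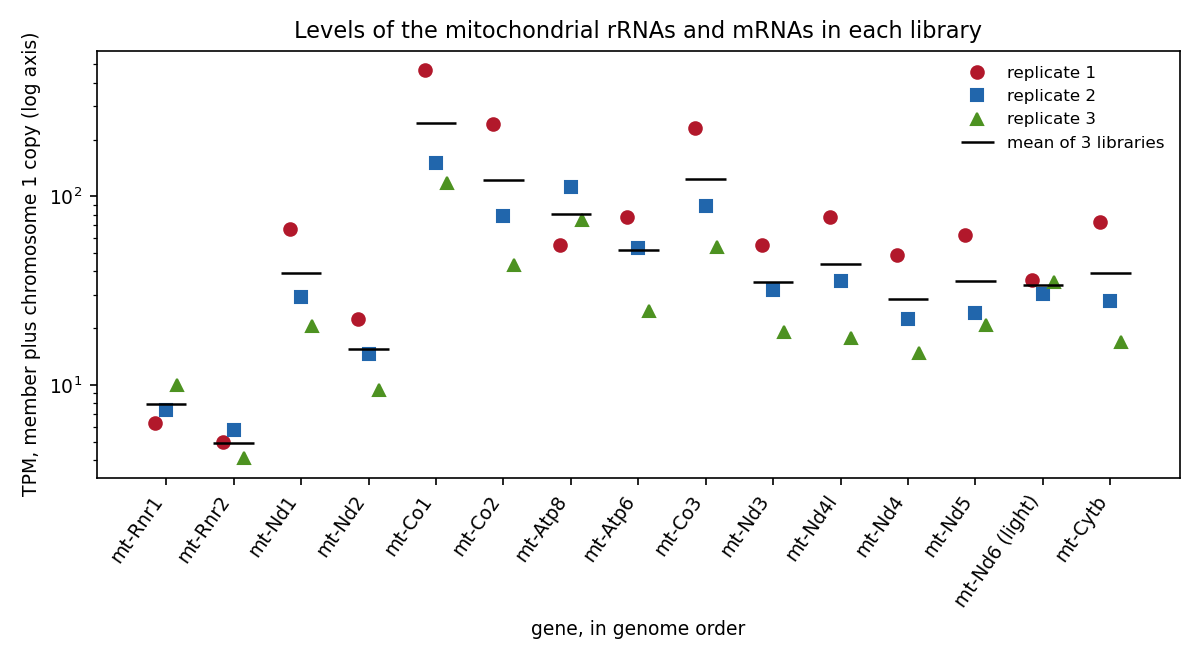
TPM of member plus chromosome 1 copy on a log axis for the 2 rRNAs and 13 mRNAs in genome order (x axis), with a point for each library and a bar at the mean of 3 libraries. mt-Co1 is highest in every library, mt-Nd6 lies between 30.4 and 36.2, and mt-Rnr1 and mt-Rnr2 lie at or below 9.98.

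The rRNAs of the mitochondrial ribosome were the lowest of the set by mean TPM. mt-Rnr1, the RNA of the small subunit (ENSMUSG00000064337.1, 70 to 1024), had 67, 94 and 125 counts and a TPM of 6.30, 7.34 and 9.98 in replicates 1, 2 and 3. mt-Rnr2, the RNA of the large subunit (ENSMUSG00000064339.1, 1094 to 2675), had 97, 138 and 95 counts and a TPM of 4.97, 5.74 and 4.08. mt-Rnr2 was lowest of the 15 in all 3 libraries, and mt-Rnr1 lay above mt-Nd2 in replicate 3. In median log2(TPM + 1) without the copies, the difference of rRNAs from mRNAs was -3.08, -1.95 and -1.39 in replicates 1, 2 and 3, a mean of -2.14 ± 0.86 (SD, n = 3). The rRNAs were lower in 3 of 3 libraries (exact sign-flip test, two-sided, p = 0.25, adjusted p = 0.333 over 4 tests). The smallest p that 3 libraries allow is 0.25, so no such comparison could pass 0.05. The mean difference was -0.98 without length normalization. With the copies added, in a calculation chosen after seeing the data, it was -2.35 ± 0.93 (SD, n = 3). The labels name ribosomal RNA depletion, whose part in these levels was not tested.

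In the order of mean TPM, from mt-Co1, mt-Co3, mt-Co2, mt-Atp8, mt-Atp6, mt-Nd4l, mt-Cytb, mt-Nd1, mt-Nd5, mt-Nd3, mt-Nd6, mt-Nd4 and mt-Nd2 down to mt-Rnr1 and mt-Rnr2, 10 of the 14 neighbouring pairs did not differ beyond their spread. A pair was said to differ where all 3 libraries gave the same direction and the mean log2 difference exceeded its SD. The 4 that did were mt-Co1 over mt-Co3 by 0.97 ± 0.19, mt-Nd4l over mt-Cytb by 0.17 ± 0.16, mt-Nd4 over mt-Nd2 by 0.79 ± 0.28 and mt-Rnr1 over mt-Rnr2 by 0.66 ± 0.54 on the log2 scale (SD, n = 3 each). In the second transcript table mt-Nd4l was below mt-Cytb in replicate 3, with a TPM of 13.1 for mt-Nd4l and 14.1 for mt-Cytb, so that pair did not differ there. The gene table's value of mt-Nd4l in replicate 3 rests on 27 counts, with an exact Poisson 95% interval of 17.8 to 39.3. Nor was mt-Rnr2 below mt-Rnr1 in the second transcript table, with a mean TPM of 8.69 ± 3.82 for mt-Rnr2 and 7.24 ± 3.35 for mt-Rnr1 (SD, n = 3 each).

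The mitochondrial mRNAs were set against 69 nuclear genes for subunits of complexes I, III, IV and V, which code for the same enzymes. The median TPM was 33.8 ± 18.9 for the 13 mitochondrial mRNAs, 40.0 ± 24.3 with the copies added, and 7.14 ± 1.78 for the nuclear genes (SD, n = 3 each). Without the copies, the difference in median log2(TPM + 1) was 2.51, 1.80 and 1.64 in replicates 1, 2 and 3, a mean of 1.98 ± 0.46 (SD, n = 3). The mitochondrial mRNAs were higher in 3 of 3 libraries (exact sign-flip test, two-sided, p = 0.25, adjusted p = 0.333 over 4 tests). The mean difference was 0.90 in the second transcript table and 1.28 without length normalization. With the copies added, in a calculation chosen after seeing the data, it was 2.19 ± 0.53 (SD, n = 3). Of the nuclear genes, Atp5b, the catalytic beta subunit of ATP synthase, was the highest of complex V with a TPM of 63.7 ± 20.6, Ndufs1 of complex I with 33.4 ± 0.581, Cox7c of complex IV with 33.4 ± 7.62 and Uqcrc1 of complex III with 28.6 ± 11.1 (SD, n = 3 each). The lowest of each were Atp5g1 with 1.41 ± 0.847, Ndufb6 with 0.957 ± 0.294, Cox6a1 with 2.08 ± 1.32 and Uqcr11 with 2.66 ± 0.484 (SD, n = 3 each). The median TPM of the nuclear lists was 11.1 ± 2.43 for complex IV, 9.17 ± 2.28 for complex V, 6.48 ± 1.496 for complex I and 4.59 ± 1.27 for complex III (SD, n = 3 each).

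Within the mitochondrial set, complex IV mRNAs exceeded complex I mRNAs by 0.58, 1.05 and 0.33 in median log2(TPM + 1) in replicates 1, 2 and 3 without the copies, a mean of 0.65 ± 0.36 (SD, n = 3), higher in 3 of 3 libraries (exact sign-flip test, two-sided, p = 0.25, adjusted p = 0.333 over 4 tests). With the copies added, in a calculation chosen after seeing the data, the mean difference was 1.72, and it was 1.78 in the second transcript table. With means of the lists in place of medians, and without the copies, it was 0.0031 ± 0.50 (SD, n = 3; exact sign-flip test, two-sided, p = 1.0), well within the spread between libraries. Those list means include mt-Co2 at a TPM of 0 in replicate 1 and mt-Co3 at 0.19 and 0.16 in replicates 2 and 3. Without the copies, mt-Nd6 set against the median of the 12 heavy-strand mRNAs gave -0.68, 0.22 and 0.92 in replicates 1, 2 and 3, a mean of 0.15 ± 0.80 (SD, n = 3), higher in 2 of 3 libraries (exact sign-flip test, two-sided, p = 0.75, adjusted p = 0.75). The spread between libraries exceeded this difference, and its sign turned to -0.12 with the copies added and to -0.06 in the second transcript table.

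Among the mitochondrial members, replicate 1 differed from the other libraries mainly in the heavy-strand mRNAs. To compare libraries, CPM values were scaled with TMM factors, which equalize the bulk of genes, and 15 members averaged at least 10 counts. Of these, 10 were highest in replicate 1, as were 36.9% of the 15871 genes that averaged at least 10 counts. With the copies added it was 11 of 15, all of them heavy-strand mRNAs, and the second transcript table gave 11 of 15, where 35.9% of its genes were highest in replicate 1. Replicate 1 exceeded the mean of replicates 2 and 3 at least 2-fold in 9 of 15 members, where 1.81% of genes did so. The median log2 ratio of the 15 members was 1.16, against -0.001 for all genes, and it was 1.17 with DESeq2 size factors and 1.14 without any scaling beyond the total. There was 1 library on one side of this ratio, so it has no test. Replicate 1 was singled out with its value known from earlier results of these data. The counts and ratios set against all genes therefore describe a library chosen in that way.

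The ratio was unequal among the members. With the copies added, the log2 ratio of scaled counts in replicate 1 to the mean of replicates 2 and 3 was 1.78 for mt-Co2, 1.54 for mt-Nd4l, 1.51 for mt-Co1 and 1.45 for both mt-Co3 and mt-Cytb. It was 1.18 for mt-Nd1, 1.16 for mt-Nd5, 1.12 for mt-Nd4, 1.04 for mt-Nd3, 0.80 for mt-Atp6 and 0.65 for mt-Nd2. These 11 heavy-strand mRNAs thus all lay above 0. mt-Nd6 had a log2 ratio of -0.08, mt-Rnr2 -0.27, mt-Rnr1 -0.77 and mt-Atp8 -0.80, so the light-strand mRNA, both rRNAs and the shortest heavy-strand mRNA lay below 0. In the second transcript table the corresponding ratios, with the copies added, were 1.85 for mt-Co2, 1.65 for mt-Co1, 0.73 for mt-Nd2, 0.05 for mt-Nd6, -0.80 for mt-Rnr1, -1.04 for mt-Rnr2 and -1.01 for mt-Atp8, so only mt-Nd6 among those named lay on the other side of 0. Replicates 2 and 3 were closer to each other, with a median log2 ratio of replicate 2 to replicate 3 of 0.33 for the 12 heavy-strand mRNAs.

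The other lists had smaller median ratios on the same scale of scaled counts. The median log2 ratio was 0.25 for 65 nuclear respiratory genes, of which 37 were highest in replicate 1, and 0.09 for 76 genes of mitochondrial ribosomal proteins, of which 33 were. It was -0.02 for 14 genes of mitochondrial transcription and replication, of which 4 were highest in replicate 1 and Polg, the mitochondrial DNA polymerase, had the highest TPM with 54.6 ± 6.98 (SD, n = 3). It was 0.15 for 15 genes of mitochondrial RNA processing and decay, of which 10 were, with Fastk highest in TPM at 36.6 ± 10.3 (SD, n = 3). Among mRNAs abundant in the cytoplasm, the median log2 ratio was 0.28 for 20 cytosolic ribosomal protein mRNAs, of which 19 were highest in replicate 1, and 0.42 for 15 others, of which 12 were. For the 10 macrophage markers it was 0.49, and 8 were highest in replicate 1. For 8 nuclear non-coding RNAs it was -0.32, with ratios from -0.63 to 0.58, and 2 were highest in replicate 1. Malat1, which is retained in the nucleus, had a log2 ratio of -0.51 and a TPM of 11326, 16632 and 21012 in replicates 1, 2 and 3. Replicate 1 also had the most counts outside annotated genes, 1.16%, against 0.459% in replicate 2 and 0.351% in replicate 3, and the largest starting amount, and the part of these in the mitochondrial values was not tested.

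By mean TPM, the highest of the ribosomal protein mRNAs was Rpl3 with 121 ± 31.7, and the ends of the other cytoplasmic mRNAs were Fth1, the ferritin heavy chain, with 753 ± 264 and Ubb, a ubiquitin gene, with 22.2 ± 12.4 (SD, n = 3 each). The ends of the macrophage markers were Lyz2, lysozyme, with 240 ± 115 and Fcgr1, an Fc receptor gene, with 16.6 ± 5.16, and the lowest nuclear non-coding RNA was Kcnq1ot1 with 16.0 ± 2.98 (SD, n = 3 each).

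**Figure D3:**
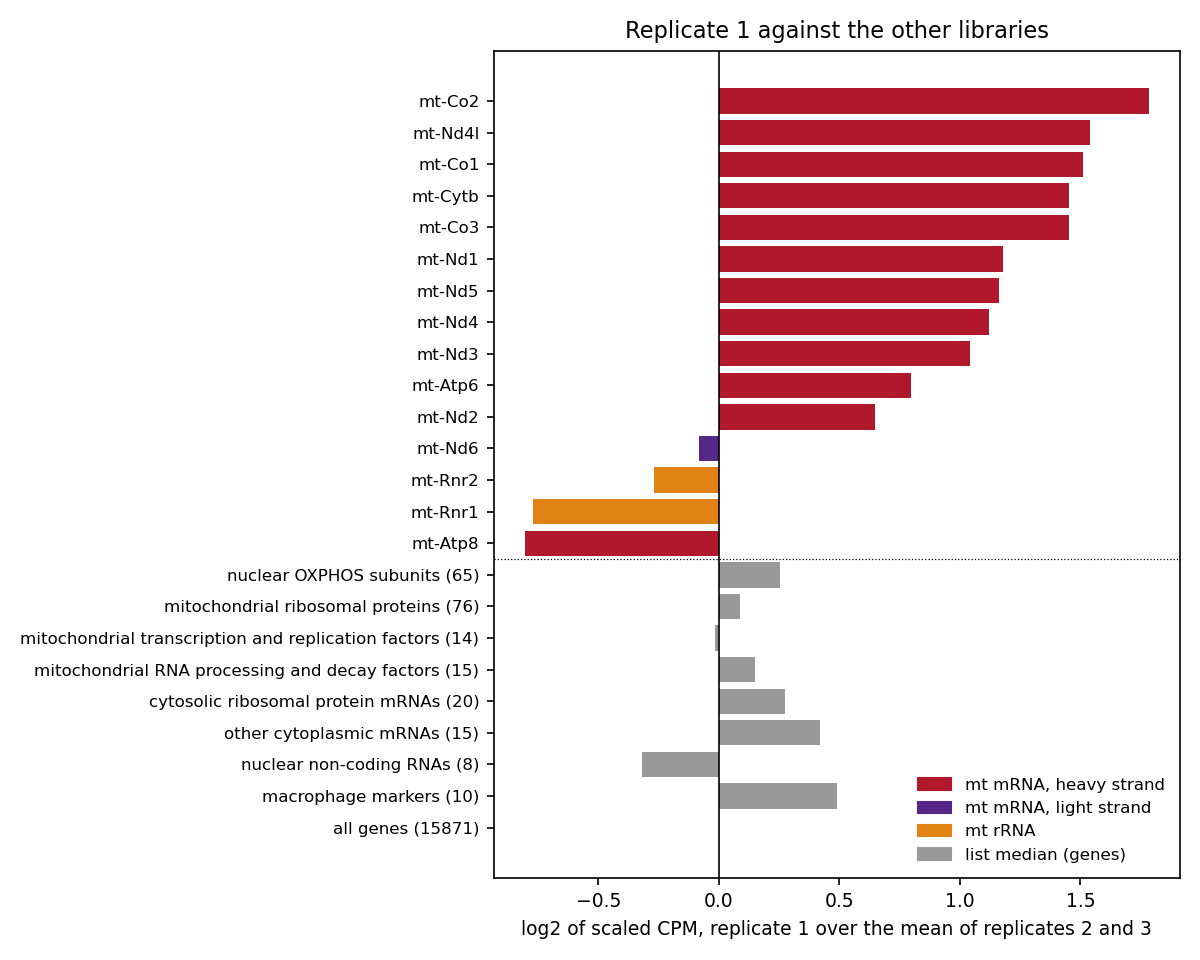
Log2 ratio of TMM-scaled CPM in replicate 1 to the mean of replicates 2 and 3 (x axis) for each of 15 mitochondrial rRNAs and mRNAs with its chromosome 1 copy added, above the medians of the other gene lists (number of genes in parentheses). The 11 heavy-strand mRNAs at the top lie between 0.65 and 1.78, while the list medians lie between -0.32 and 0.49.

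The tRNAs, which carry amino acids for mitochondrial translation and mark the cut sites of the precursors, could not be measured in the gene table. All 22 were listed at 0 in every library, and all 22 had an effective length of 0, as did 4326 of the 55536 annotated genes. Their lengths of 59 to 75 bases lie below the library size range of 250 to 400 that the labels give, with no unit, and a listed 0 says nothing about their expression. The second transcript table was different, and in it 11 of 22 had some count, and none reached a mean of 10. The 8 light-strand tRNAs held 18, 16 and 19 counts in replicates 1, 2 and 3, against 2, 2 and 0 for the 14 heavy-strand tRNAs. Of the light-strand tRNAs 7 of 8 had a count, and 3 had counts in every library, while 4 of 14 heavy-strand tRNAs had 1 count each. The use of strand in counting is not known here, so the strand of the RNA behind these counts cannot be told.

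The 3 with counts in every library were mt-Ts1 with 5, 3 and 7 counts, mt-Tc with 5, 3 and 2 and mt-Tp with 4, 3 and 3 in replicates 1, 2 and 3. They carry serine, cysteine and proline. mt-Ta, the alanine tRNA, had 0, 3 and 5 counts. These 4 were chosen after their values were seen, and their sequences are given because they hold most of the counts on light-strand tRNA genes. The positions are chrM:6870-6938, chrM:5192-5257, chrM:15356-15422 and chrM:5018-5086, all on the minus strand, and capitals mark the anticodon.
mt-Ts1: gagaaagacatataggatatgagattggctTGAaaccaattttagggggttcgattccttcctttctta
mt-Tc: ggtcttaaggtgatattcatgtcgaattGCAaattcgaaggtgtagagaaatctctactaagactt
mt-Tp: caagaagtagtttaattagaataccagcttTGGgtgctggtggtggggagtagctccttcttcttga
mt-Ta: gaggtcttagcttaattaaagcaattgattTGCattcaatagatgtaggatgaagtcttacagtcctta

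A read counted on so short a transcript can come from a longer precursor, and whether these counts come from mature tRNAs was not tested. mt-Ts1 also overlaps the end of mt-Co1, which lies on the opposite strand. The light-strand sums of 16 to 19 counts a library are too few to compare the libraries.

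**Figure D4:**
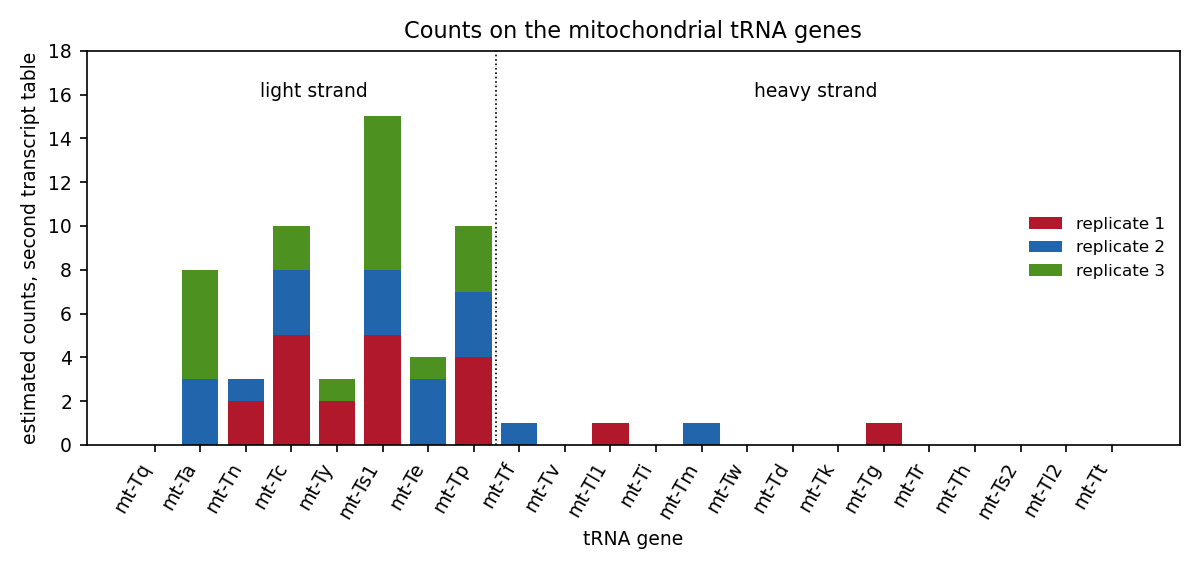
Estimated counts in the second transcript table (y axis) on each of the 22 mitochondrial tRNA genes (x axis), light-strand genes left and heavy-strand genes right, stacked by library. Light-strand genes hold 53 of the counts and heavy-strand genes 4, and mt-Ts1 has the tallest bar with 5, 3 and 7.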

How the data were processed

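Ribosomal RNA depleted libraries of chromatin-fraction RNA were deposited as gene and transcript tables, each library quantified separately. The gene tables hold estimated counts, posterior mean counts with their standard deviation from read assignment, effective lengths and TPM. They were derived by the authors from alignments to mm10 with GENCODE M21, per the deposited readme files. The second transcript tables hold estimated counts and TPM made by the authors from the reads and a transcript index, per the same files. Program names, versions and use of strand were not given in the sources used here. TPM is relative to all listed RNAs.

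Members, gene lists and the comparison of replicate 1 with the other libraries were chosen with earlier results of these data known. Genes were placed with the GENCODE M21 annotation, and 1 of the list symbols was not matched. Nuclear copies were found with blastn 2.17.0 (90% identity or more over 100 bases or more), and copies of 99% identity or more were added to their member's counts and divided by the member's effective length. Counts rounded to whole numbers were scaled with TMM in edgeR 4.0.16 or with DESeq2 1.42.0 size factors, and the scaling was tested on simulated data. Libraries of 1 group were compared between gene lists within a library, as medians of log2(TPM + 1), by exact sign-flip tests in Python 3.11.15 with Benjamini-Hochberg adjustment over 4 tests. The pseudocount of 1 understates differences of low genes. Detection needed a TPM of 1 in all 3 libraries. The mRNAs and rRNAs are named by rule, as are the highest and lowest gene of each list and copies with a mean of 10 or more counts; tRNAs below 10 were named after their values were seen. Some genes that this rule names are not reported here. A count of 0 allows up to 3 counts, 0.191, 0.187 and 0.209 CPM in replicates 1, 2 and 3, for counting error only. Rows naming no annotated gene were left out. Chi-square per degree of freedom between libraries was 30.6, 24.6 and 13.1, so none repeats another. Sequences are from the GENCODE M21 transcripts.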

Additional observations from a re-analysis of the deposited data

How the results depend on the processing

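No paired analysis was possible because there is 1 group. The mitochondrial mRNA excess over nuclear respiratory genes stayed positive in 13 alternatives, from 0.90 to 2.72, and the rRNA deficit stayed negative in 13, from -2.88 to -0.98. The ends of 2.72 and -2.88 came from leaving out members that have a nuclear copy. The only mRNAs left there were mt-Nd1 and mt-Atp8, the latter with 24, 47 and 36 counts. The complex IV excess over complex I stayed positive in 11, but was 0.0031 with list means without the copies and 1.92 with the copies added in the second transcript table. The mt-Nd6 difference turned to -0.0635 in the second transcript table, with or without the copies, to -0.67 without length normalization and to -0.12 with the copies added. Leaving out 1 replicate gave -0.23 to 0.57 for it, with -0.23 without replicate 3. The cause of these reversals was not tested. Without members that have a nuclear copy, neither the mt-Nd6 nor the complex IV comparison has a value, and without those that have a chromosome 1 copy the complex IV comparison has none. The share of counts was 0.0375% to 0.0667% without 1 replicate, lowest without replicate 1. The number of members detected was 17 in the second transcript table, for which no share of all genes is given, against 11. The log2 ratio of the members' summed CPM in the gene table to the second transcript table was 0.20, with 0.45 once the nuclear or the chromosome 1 copies were added (0.445 and 0.4516). The number highest in replicate 1 was 10 or 11 in all alternatives run. The copies at 99% identity were added as an alternative after the data were seen. Depth limits mt-Atp8, mt-Nd4l, mt-Nd3, the rRNAs and the tRNAs most.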

Other observations

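Counts of the rRNA of the large subunit differed between the 2 tables by more than those of any mRNA in replicates 2 and 3, while mt-Nd4l differed by more in replicate 1. The second transcript table held 1.63, 2.49 and 4.52 times the gene table's counts of mt-Rnr2 in replicates 1, 2 and 3, and 1.24, 1.38 and 1.66 times those of mt-Rnr1. For the 13 mRNAs with their copies the median was 1.09, 1.18 and 1.31 times, with a highest value of 1.68, 1.51 and 2.00, and for all annotated genes together it was 1.53, 1.76 and 1.73 times. mt-Nd4l stood above the other complex I mRNAs with 1.68, 1.51 and 1.63 times. In log2 terms of share of all counts, the members and their copies were thus 0.45 higher in the gene table than in the second transcript table.

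Among the nuclear genes that serve mitochondrial RNA, Slirp, whose protein binds mitochondrial mRNAs together with that of Lrpprc, was the lowest of its list in TPM, with 3.27, 0.65 and 0.98 in replicates 1, 2 and 3, and had a log2 ratio of replicate 1 to the mean of the others of 2.47. Mterf2, a member of the mitochondrial termination factor family, was the lowest of the transcription and replication list with a TPM of 0.90, 2.10 and 1.02, and had a log2 ratio of -0.88. Cox6a1, the lowest of the nuclear complex IV genes, had a TPM of 3.55, 1.68 and 1.01 and a log2 ratio of 1.25. Mrpl24 had the highest TPM among the mitochondrial ribosomal protein genes, 44.1 ± 7.29, and Mrpl35 the lowest, 0.877 ± 0.0929 (SD, n = 3 each).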
